A study of Homo sapiens with 6 samples.

Results

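The loci of 7 transcription factors that build the B-lymphoid lineage, PAX5, EBF1, IKZF1, IKZF3, TCF3, LEF1 and FOXO1, held 117 of the 130872 regions of open chromatin found in 3 leukemia lines. Regions were assigned to the loci by position alone, and the loci were chosen with earlier results of these data known. A region is a set of touching or overlapping ATAC-seq peaks from any of 12 peak lists, and it belongs to a locus where it overlaps a fixed hg19 window around the gene. In all, 707 of 718792 peaks lay in these windows. ATAC-seq maps accessible DNA with the Tn5 transposase, which inserts sequencing adapters where chromatin is open. The study compared 6 samples, namely the B-cell acute lymphoblastic leukemia lines RS4;11, SEM and RCH, each with a non-targeting control shRNA (NT) or with sh2, an shRNA against NSD2, the enzyme that places dimethylation on lysine 36 of histone H3. A KMT2A-AFF1 fusion drives both RS4;11 and SEM. The label RCH was read as RCH-ACV, named among the lines grown. Each group is 1 cell line with 1 hairpin and came as 2 peak lists, called libraries 1 and 2 here. The labels do not say whether these came from separate cultures, so differences between them may be technical, and the extent of the knockdown was not measured in these files.

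B-cell development rests on a small network of DNA-binding factors. TCF3 (E2A), a basic helix-loop-helix factor, and FOXO1, a forkhead factor, act together with EBF1 in early progenitors, and EBF1 and PAX5 then fix the B-cell fate. IKZF1 (Ikaros) and IKZF3 (Aiolos) are zinc finger factors of lymphoid cells, and LEF1 is an HMG-box factor that carries Wnt signals and is active in immature B cells. PAX5, IKZF1 and EBF1 are among the genes most often deleted or mutated in this leukemia.

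The promoters of EBF1, IKZF1 and LEF1 hold letters that factors of the same network recognize, and they are the ones shown because no other promoter of the set matched a motif searched. Each of the 3 genes also had a region open in every list at the end of the window where the gene starts. So did TCF3 and FOXO1, whose promoters had no match, so this does not set the 3 apart. The sequences are RefSeq's on GRCh38.p14, the 250 bases before the annotated start. Capitals mark CAGCTG, an E-box of the kind TCF3 binds, and TGGGAA in either direction (TTCCCA on the other strand), the core that IKZF1 and IKZF3 bind. The EBF1 promoter is chr5:159097957-159098206 on the minus strand, that of IKZF1 (the first of 3 listed starts) chr7:50304466-50304715 on the plus strand, and that of LEF1 chr4:108166302-108166551 on the minus strand. These positions are on another build than the peaks, so promoters and peaks were not matched base by base.
EBF1: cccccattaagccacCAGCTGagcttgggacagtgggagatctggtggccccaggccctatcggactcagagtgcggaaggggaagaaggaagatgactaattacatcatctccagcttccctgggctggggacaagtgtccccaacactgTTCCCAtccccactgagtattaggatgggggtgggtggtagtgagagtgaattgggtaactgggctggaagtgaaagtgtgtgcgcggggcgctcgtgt
IKZF1: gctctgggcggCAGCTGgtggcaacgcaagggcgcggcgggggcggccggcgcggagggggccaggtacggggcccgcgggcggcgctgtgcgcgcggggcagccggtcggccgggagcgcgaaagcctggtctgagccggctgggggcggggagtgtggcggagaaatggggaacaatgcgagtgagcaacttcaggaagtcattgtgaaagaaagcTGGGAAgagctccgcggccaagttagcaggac
LEF1: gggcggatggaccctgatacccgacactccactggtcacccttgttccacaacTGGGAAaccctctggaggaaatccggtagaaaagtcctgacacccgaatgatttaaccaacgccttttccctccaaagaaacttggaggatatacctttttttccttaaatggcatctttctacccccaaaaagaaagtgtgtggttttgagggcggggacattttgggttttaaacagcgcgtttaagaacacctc

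Both EBF1 and IKZF1 held CAGCTG, beginning at -235 and -239 relative to the start, and all 3 promoters held TGGGAA in 1 of the directions. Among 35116 promoters of the same length, 14.0% held CAGCTG and 20.8% held TGGGAA, so neither is rare. The 2 motifs did not overlap. CAGGTG (another E-box, 17.5% of promoters), TCCC and GGGA set 2 bases apart (EBF1, 1.06%), GTAAACA (FOXO1, 2.98%), CTTTGAT (LEF1, 2.26%) and CTTTGAA (LEF1, 3.80%), searched on both strands, had no match in the promoters of PAX5, EBF1, IKZF1, TCF3, LEF1 or FOXO1. The table had an entry for 6 of the 7 genes and none for IKZF3. A match describes letters and does not show a bound site.

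The first question was how open each locus was. EBF1, with the longest window at 430 kb (chromosome 5, 158110000 to 158540000), had 43 regions. PAX5 had 22 in 230 kb (chromosome 9, 36820000 to 37050000), and LEF1 14 in 140 kb (chromosome 4, 108960000 to 109100000). FOXO1 had 14 in 130 kb (chromosome 13, 41120000 to 41250000), IKZF3 9 in 120 kb (chromosome 17, 37910000 to 38030000), and IKZF1 8 in 150 kb (chromosome 7, 50330000 to 50480000). TCF3 had 7 in 60 kb (chromosome 19, 1600000 to 1660000). IKZF1 thus had the fewest regions per length, 5.33 per 100 kb, against 7.5 at IKZF3 and 9.57 to 11.7 at the other loci. Windows reach past the genes, and no hg19 annotation was used, so regions near a window's edge may belong to a neighbor (UQCR11 below TCF3, for example).

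**Figure D1:**
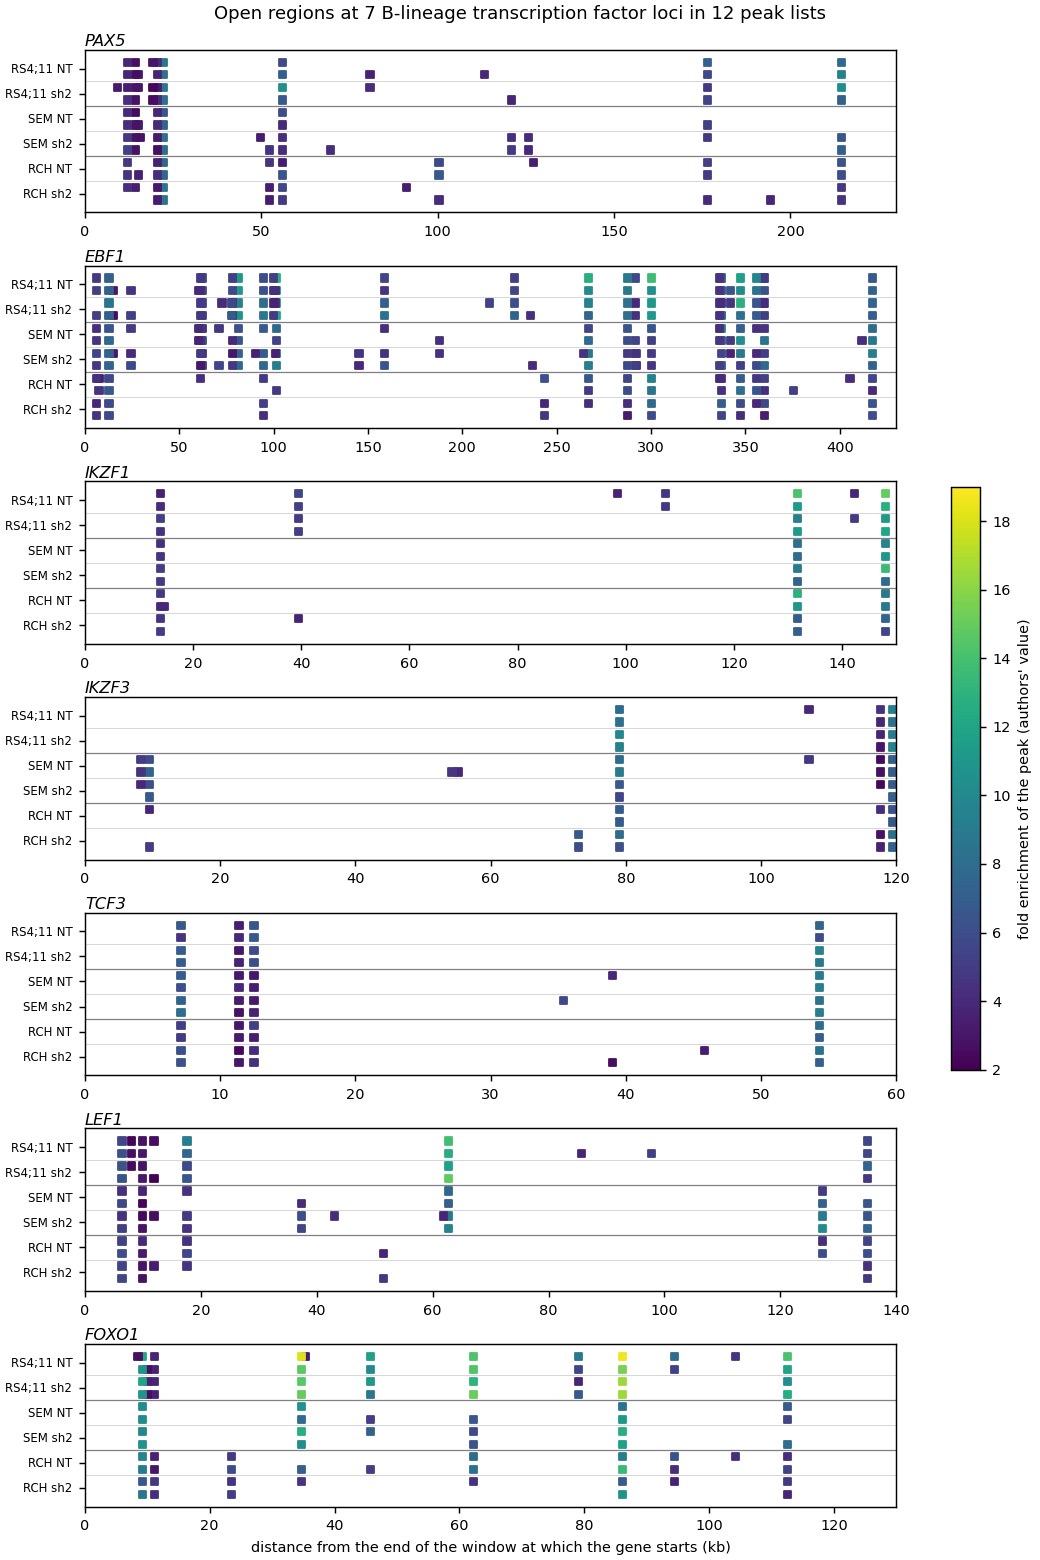
Open regions at the 7 loci. The x axis is the distance in kb from the end of the window at which the gene starts, and rows are the 12 peak lists (library 1 above library 2). Color is the authors' value of each peak, taken for a fold enrichment. Columns that run through all rows are the 23 regions open in every list, and RCH has few EBF1 peaks between the regions at the gene start and the middle of the window.

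Of the 117 regions, 23 (19.7%) were open in all 12 lists and 29 (24.8%) in a single list, against 16.5% and 28.3% of all regions. The regions open everywhere were 7 at EBF1, 4 at TCF3, 3 each at PAX5 and IKZF1, and 2 each at IKZF3, LEF1 and FOXO1. TCF3, which has the shortest window, was the most uniform, since its 4 were 57.1% of its regions and its other 3 were each open in at most 2 lists. With all lists reduced to the length of the shortest, 8 of the 23 were still open in all 12, and with peaks required to cover 50% of a region, 6. Shares of all regions under these settings are not given here, so the drop cannot be called particular to the loci.

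At the end of the window where the gene starts, 5 of the 7 loci had a region within 15 kb that was open in all 12 lists. At EBF1 it lay from 158526772 to 158527688, and its fold enrichment ran from 5.69 to 8.52. At FOXO1 it lay from 41240387 to 41241310, with 6.58 to 12.1. At TCF3 it lay from 1652573 to 1653274, with 4.56 to 8.07. LEF1 had the broadest one, 2057 bp from 109092598 to 109094654, with 4.38 to 6.38, and IKZF1 one of 1240 bp from 50343297 to 50344536, with 3.53 to 5.16. Folds are the authors' value of each peak, taken, from its range, for signal over the background of its own library. They are not normalized between lists, so values given side by side show no change in level.

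By that limit PAX5 and IKZF3 were the exceptions. The 15 kb were counted from the end of the window, not from an annotated start, and were not among the planned rules. Windows reach past the genes, so the limit may stop short of a start. The most widely open PAX5 region within it (37037630 to 37038334) was missing from RCH sh2 library 2 only, and its folds were low, 3.42 to 5.19. Just past the limit, PAX5 regions from 37034290 to 37034547 and from 37034699 to 37034969 were open in 1 and 4 lists. Further inward, a region from 37027527 to 37028081 was open in all 12 lists with folds of 6.51 to 8.76. At IKZF3 the most widely open region at that end, 38020349 to 38020712, had a peak in 6 lists. It was open in all SEM lists, at 5.93 and 7.49 with NT and 6.01 and 6.67 with sh2. RCH had it in NT library 1 (3.81) and sh2 library 2 (5.04), and RS4;11 in no list. RS4;11 had no peak at all in the side of the IKZF3 window that holds the gene start, up to the midpoint. Of the 4 regions found there, SEM had 4 and RCH had 1 in at least 1 list. Over all regions, 73.4% were open in at least 1 RS4;11 list, 60.5% in SEM and 56.6% in RCH. Only 1 of the 4 was open in all 4 SEM lists. Those from 37974671 to 37974870 and from 37975575 to 37975792 had a peak in SEM NT library 2 alone. The split at the midpoint was chosen after the values were seen.

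The strongest region of the 7 loci lay in FOXO1, from 41163699 to 41164198, 86.1 kb from the gene-start end. Its folds were 18.6 and 15.6 in RS4;11 NT, 16.5 and 16.5 in RS4;11 sh2, 8.5 and 11.0 in SEM NT, 12.7 and 11.7 in SEM sh2, 9.23 and 13.5 in RCH NT, and 6.81 and 10.7 in RCH sh2. On average it ranked at percentile 87.9 of its lists. IKZF1 had a pair of strong regions at the far end of its window. The one from 50477502 to 50478468 averaged percentile 78.5 with folds of 5.41 to 14.9, and the one from 50461280 to 50462074 averaged 75.4 with 6.87 to 14.2. At the other loci the region of highest mean percentile among those open in all lists reached 67.5 at TCF3 (1605187 to 1606197), 66.4 at PAX5 (37027527 to 37028081), 63.5 at EBF1 (158192245 to 158192892), 63.3 at IKZF3 (37950567 to 37951259) and 38.4 at LEF1 (109092598 to 109094654). Being open in every list did not mean being strong, since a LEF1 region from 109089851 to 109090297 was in all 12 lists at a mean percentile of 1.83, with folds of 2.15 to 3.93.

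The second question was how the 3 lines differ with the control shRNA. Of 18 regions open in both NT libraries of some lines and closed with NT in the others, EBF1 held 5, FOXO1 4, LEF1 3, PAX5 3, IKZF1 2, IKZF3 1 and TCF3 none. RS4;11 and SEM, but not RCH, were open at 4 regions by the NT libraries, 4.21% of the 95 regions open with NT, against a background of 3.62% of all regions. RS4;11 alone was open at 6 (6.32%, background 10.2%), SEM alone at 1 (1.05%, background 2.49%) and RCH alone at 3 (3.16%, background 3.23%). RS4;11 and RCH without SEM shared 3 (3.16%, background 3.45%), and SEM and RCH without RS4;11 shared 1 (1.05%, background 0.866%). These shares lay near or below the background, and with 1 sample per line no test was possible.

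The counts moved with single libraries. Leaving a library out loosens the rule for every region, so the counts could only stay or rise. Shares of all regions under the looser rule are not given here. Regions of RS4;11 alone were 13 without its NT library 1 or 2. Those of SEM alone were 6 and 3 without SEM NT library 1 and 2, and 2 without RS4;11 NT library 2 or RCH NT library 1. Those of RCH alone were 6 and 7 without RCH NT library 1 and 2. Regions of RS4;11 and SEM were 8 without RCH NT library 1, those of RS4;11 and RCH 5 and 6 without SEM NT library 1 and 2, and those of SEM and RCH 2 without RCH NT library 2. A stricter rule, open in all 4 lists of some lines and in no list of the others, left 8 regions, described next. It was chosen after the values were seen. For this rule, shares of all regions with lists of equal length are not given here.

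At LEF1 the region from 109036887 to 109037789 was open in every RS4;11 and SEM list and in no RCH list. Its folds were 13.9, 12.5, 11.6 and 14.9 in RS4;11 (NT libraries, then sh2) and 7.72, 7.06, 8.89 and 9.49 in SEM, at percentiles from 60.0 to 92.2 of these lists. It had the highest fold of the locus in all 4 RS4;11 lists and in SEM NT library 1, and in the other SEM lists the region from 108972516 to 108972921, described further on, was higher. EBF1 had 2 regions with the same pattern. The one from 158458482 to 158458921 had folds of 11.2, 11.2, 9.52 and 10.7 in RS4;11 and 6.25, 6.57, 7.22 and 7.75 in SEM. The one from 158477270 to 158478012 was weaker, with 5.00 to 5.86 in RS4;11 and 4.28 to 5.95 in SEM. These 3 regions are 2.56% of the 117, against 1.44% of all regions, and 2 were left with lists of equal length.

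RS4;11 alone was open in all 4 of its lists at 3 regions (2.56%, background 2.03%), and at 0 with lists of equal length. These were EBF1 from 158312210 to 158312572 with folds of 5.17 to 7.27, EBF1 from 158439867 to 158440165 with 3.69 to 5.17, and FOXO1 from 41170690 to 41171103 with 3.82 to 8.79. RCH alone was open at FOXO1 from 41226307 to 41226658 with 4.64 to 5.94 (1 region, 0.855%, background 0.889%). RS4;11 and RCH, but not SEM, shared FOXO1 from 41238322 to 41239499, with 3.61 to 3.81 and 2.98 to 4.75 (0.855%, background 0.426%), a pattern that no region kept with lists of equal length. No region was open in all lists of SEM alone (background 0.957%) or of SEM and RCH alone (background 0.355%).

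**Figure D2:**
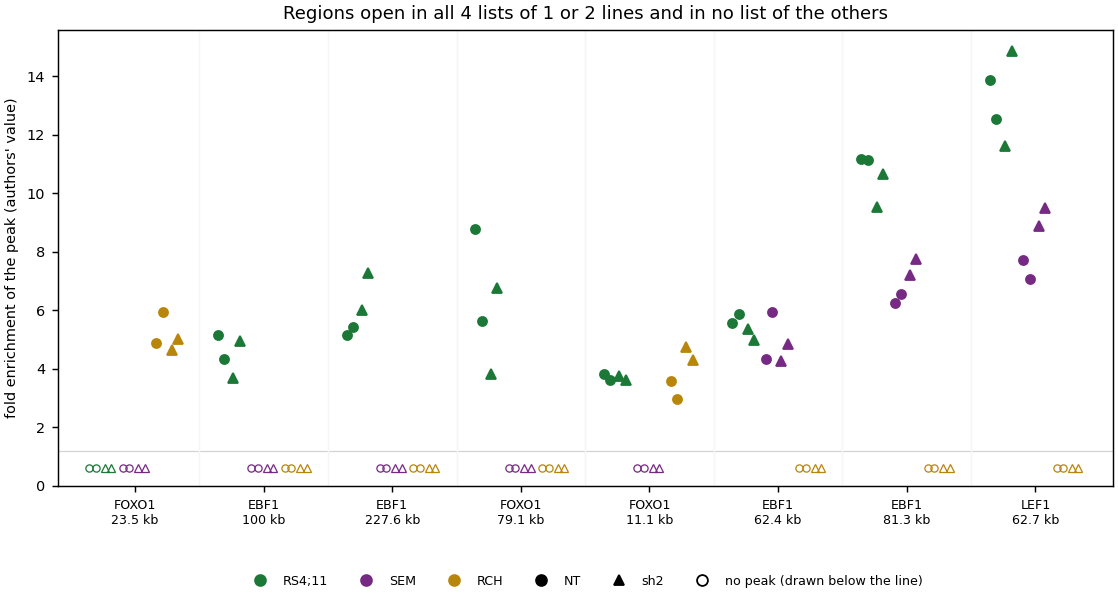
Authors' peak value, taken for a fold enrichment (y axis), in each library at the 8 regions open in all lists of some lines and in no list of the others. Regions are named by locus and distance from the gene-start end of the window. Color is the line, circles are NT and triangles sh2, and open symbols below the line mark libraries with no peak. The LEF1 region and the EBF1 region at 81.3 kb have the highest values, and RCH has no peak at either.

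RCH had few peaks in the side of EBF1 toward the gene start. Up to the midpoint of the window, 17 of 22 regions (77.3%) were open in at least 1 RS4;11 list and 17 in at least 1 SEM list, against 6 (27.3%) in RCH. Over all regions the same shares were 73.4%, 60.5% and 56.6%. A single list had 10 to 14 of these regions in RS4;11, 9 to 15 in SEM and 3 to 5 in RCH. In the other side of the window the lines were closer, with 14, 15 and 12 of 21 regions (66.7%, 71.4% and 57.1%) open in at least 1 list and 11 to 13, 9 to 12 and 7 to 11 in a single list. A strong region at 158438130 to 158438677 shows the contrast. It had folds of 11.6 to 12.8 in RS4;11 and 5.20 to 9.14 in SEM, and RCH had a peak there in NT library 2 only (4.87). The gene-start region of EBF1 itself was open in all RCH lists. This split of the window was chosen after the values were seen. RCH lists are also shorter, with 41594 to 57088 peaks against 53837 to 64200 in SEM and 61551 to 84794 in RS4;11, and the part of list length in this contrast was not tested.

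The third question was what changed with the NSD2 shRNA. Few regions of the 7 loci did, and the sh2-only shares lay near those of all regions. NT-only regions had a peak in both NT libraries of a line and in neither sh2 library, and sh2-only regions the opposite. In RS4;11 there were 2 NT-only regions among the 81 open in the line (2.47%, background 9.79% of all its regions) and 1 sh2-only region (1.23%, background 0.854%). SEM had 1 of 79 NT-only (1.27%, background 2.59%) and 5 sh2-only (6.33%, background 7.69%). RCH had 2 of 64 NT-only (3.12%, background 10.6%) and 1 sh2-only (1.56%, background 1.9%). NT-only shares were thus below the background in RS4;11 and RCH, the lines whose lists became shorter with sh2. Regions open in all 4 lists of the line made up 61.7% in RS4;11 (background 48.5%), 44.3% in SEM (47.8%) and 43.8% in RCH (37.8%).

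**Figure D3:**
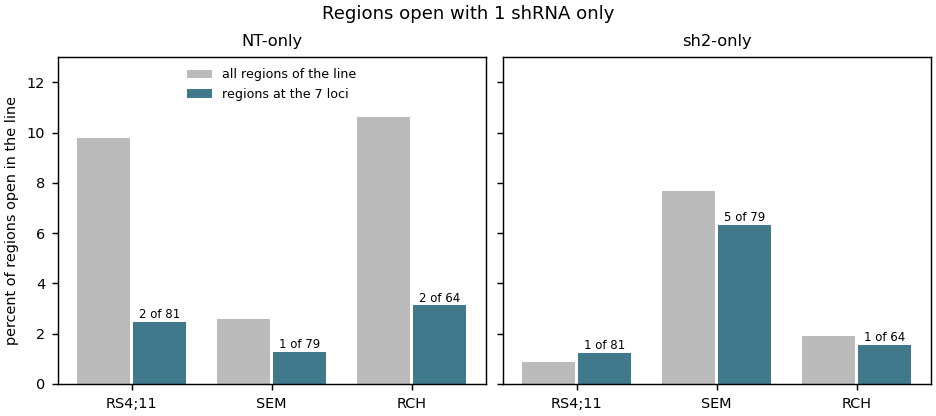
Percent of the regions open in a line (y axis) that were open in both libraries of 1 shRNA and in none of the other, for all regions of the line (grey) and for the 7 loci (blue, with counts). NT-only shares at the loci are 2.47% in RS4;11 and 3.12% in RCH, where all regions have 9.79% and 10.6%.

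The 2 libraries of a sample also differed from each other. Of the regions open in a sample, a large part was open in only 1 of its libraries. At the 7 loci this was 28.0% in RS4;11 NT and 22.9% in RS4;11 sh2, against 29.5% and 25.9% of all regions. It was 34.4% and 30.6% in SEM NT and sh2 (background 29.2% and 28%), and 32.1% and 34.6% in RCH NT and sh2 (background 35.3% and 35.6%). These exceed the NT-only and sh2-only shares of every line, as the same shares do over all regions. The measures are unlike, since 1 compares the 2 lists of a sample and the other sets a condition on all 4 lists of the line. With 1 library left out, the rule is looser for every region. The NT-only count in RS4;11 was then 6 and 7 without NT library 1 and 2 and 3 without sh2 library 1 or 2, or 3.80% to 9.09%, against 13.3% to 25.0% of all regions. In RCH it was 7 without NT library 1 or 2, 8 without sh2 library 1 and 4 without sh2 library 2, or 6.45% to 13.6%, against 14.5% to 25.1%. In SEM it was 5 without NT library 1 (6.49%, against 7.7% of all regions) and 3 without NT library 2 (4.0% against 7.04%), sh2 library 1 (4.35% against 5.43%) or sh2 library 2 (3.95% against 4.58%). The sh2-only count in SEM was 10 without NT library 1 or 2, 8 without sh2 library 1 and 15 without sh2 library 2, or 11.6% to 19.7%, against 12% to 17.2%. In RS4;11 it was 3 without NT library 1 (3.95% against 3.41%), 2 without NT library 2 (2.6% against 1.68%), 3 without sh2 library 1 (3.85% against 4.27%) and 4 without sh2 library 2 (5.06% against 3.86%). In RCH it was 6 without NT library 1 (10.2% against 3.86%), 1 without NT library 2 (1.69% against 3.86%), 3 without sh2 library 1 (5.08% against 7.01%) and 6 without sh2 library 2 (9.68% against 7.84%). The sh2-only share at the loci thus lay above or below that of all regions depending on the library left out.

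Lists of equal length turned the balance of the classes. With every list of a line cut to the length of its shortest, keeping the highest folds, there was 1 NT-only region in RS4;11 (1.41%, background 6.44%) and there were 7 sh2-only (9.86%, background 3.66%), and RCH had 0 (background 6.71%) and 5 (9.43%, background 4.9%). SEM had 6 NT-only (8.96%, background 4.98%) and 1 sh2-only (1.49%, background 6.07%). Every region that this setting added had peaks of both shRNAs in that line as deposited. In RS4;11, 6 of the 7 had both NT libraries open before the reduction, among them the gene-start region of IKZF1 (50343297 to 50344536, folds of 3.53 and 4.15 with NT and 5.14 and 4.51 with sh2). They are weak peaks that the reduction removed from the longer lists. In these lists sh2-only therefore means that no NT peak was left, not that none was called.

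At PAX5 the changed regions were all gains (sh2-only calls) in SEM, the line whose lists became longer with sh2. They were 3 of the 14 PAX5 regions open in SEM (21.4%, background 7.69%). The region from 36835266 to 36835949 had no peak in SEM NT and folds of 6.45 and 7.17 in SEM sh2, while the other lines were open there in every list, at 7.14 to 10.3 in RS4;11 and 4.59 to 6.25 in RCH. SEM thus had with sh2 a region that the other lines had with either shRNA. It was still sh2-only with lists of equal length and with peaks above the pooled median fold, but not where a peak had to cover 50% of the region, since no SEM peak did. The other 2 were weaker, with 4.36 and 4.84 from 36928800 to 36929151, where RS4;11 sh2 library 2 also had a peak (3.85), and 4.09 and 3.90 from 36924097 to 36924368, which was open in SEM sh2 alone. Neither of these 2 was still sh2-only with lists of equal length.

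EBF1 changed at 5 regions, and 3 of them had a peak of the other shRNA of that line within 1 kb. RS4;11 gained the region from 158462068 to 158462314 with folds of 5.60 and 6.70, and no other sample had it. The adjacent region from 158461601 to 158461884 was open in all 4 RS4;11 lists, so this call is lost where NT peaks must lie over 1 kb away. SEM gained those from 158247375 to 158247627 (5.32 and 3.37) and from 158394565 to 158394934 (4.63 and 3.99), and lost that from 158479703 to 158479959 (4.05 and 3.66 with NT), which RS4;11 NT library 2 had as well (3.99). The first and the last of these SEM regions had such a neighboring peak within 1 kb too. RCH lost the region from 158532288 to 158532615 (3.39 and 4.53 with NT). Each of these 5 was at most 370 bp wide. The SEM gains were 2 of the 32 EBF1 regions open in that line (6.25%, background 7.69%).

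IKZF1, FOXO1, LEF1 and IKZF3 changed at 1 region each, and TCF3 at none in any line. RS4;11 lost an IKZF1 region from 50437170 to 50437425, with folds of 4.77 and 4.83, and no other sample had a peak there. It also lost a FOXO1 region from 41155319 to 41155661, with 7.96 and 5.20. RCH had that FOXO1 region in both NT libraries (6.36 and 4.24) and in sh2 library 1 (3.54), and SEM had none. RCH lost a LEF1 region from 108972516 to 108972921, with 4.33 and 5.97, which SEM had in all lists at 4.95 to 10.1 and RS4;11 in none. RCH gained an IKZF3 region from 37956838 to 37957118, with 6.76 and 5.88, and no other sample had it. None of the 12 changed regions was in the same class in another line. Of all changed regions 6.08% were, a share that would come to less than 1 region in 12.

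**Figure D4:**
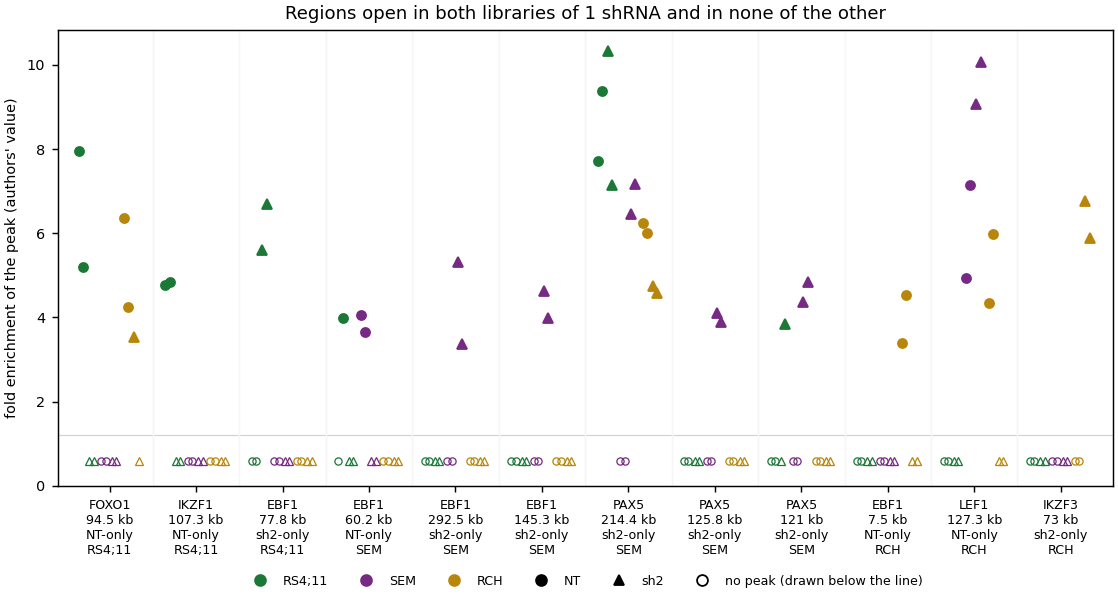
Authors' peak value, taken for a fold enrichment (y axis), in each library at the 12 regions that were NT-only or sh2-only in a line. Regions are named by locus, distance from the gene-start end of the window, class and line. Color is the line, circles are NT and triangles sh2, and open symbols below the line mark libraries with no peak. The PAX5 region at 214.4 kb has a peak in every library except those of SEM NT.

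In RS4;11 and RCH the number of peaks at the 7 loci fell by a smaller part than the lists did. In SEM it grew by a slightly larger part as a mean of the libraries. RS4;11 had 71 and 70 such peaks with NT and 70 and 63 with sh2, while its lists went from 84794 and 74244 peaks to 61551 and 63392. RCH had 52 and 52 with NT and 48 and 43 with sh2, with lists of 56511 and 57088 against 44244 and 41594. SEM had 52 and 56 with NT and 70 and 60 with sh2, with lists of 53837 and 55072 against 64200 and 62265. Per 10000 peaks of the list, the loci held 8.90 with NT and 10.65 with sh2 in RS4;11 as means of the libraries. The means were 9.92 and 10.3 in SEM, and 9.16 and 10.6 for RCH. All sh2 libraries lay above all NT libraries in RS4;11 and RCH, and they overlapped in SEM. The log2 ratio of sh2 over NT averaged 0.17 ± 0.11 (SD, n = 3 lines). By an exact sign-flip test, two-sided, p was 0.25, the smallest that 3 lines allow. Adjusted over the 8 comparisons of loci and total (Benjamini-Hochberg) it was 0.667. By number instead of share the mean was -0.0031, and with lists of equal length the SEM ratio turned to -0.21, beside 0.47 in RS4;11 and 0.53 in RCH. The SEM ratio was also below 0 by share of covered bases, at -0.09, beside 0.23 in RS4;11 and 0.30 in RCH.

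PAX5 was the only locus whose share was higher with sh2 in every line with no overlap between NT and sh2 libraries, though with 3 lines no test could pass. Per 10000 peaks it held 0.944 and 1.35 with NT and 1.79 and 1.42 with sh2 in RS4;11. In SEM it held 0.929 and 1.27 against 1.71 and 1.61, and in RCH 1.59 and 1.40 against 1.81 and 1.92. The mean log2 ratio was 0.47 ± 0.14 (SD, n = 3, exact sign-flip test, two-sided p = 0.25, adjusted 0.667). In numbers of peaks the lines differed. SEM went from 5 and 7 to 11 and 10, RS4;11 from 8 and 10 to 11 and 9, and RCH from 9 and 8 to 8 and 8, so that only SEM had more peaks in every sh2 library. With lists of equal length the order of the lines changed. The log2 ratio was then 1.17 in RS4;11, 0.53 in RCH and -0.15 in SEM, on 5 and 5 SEM peaks with NT and 4 and 5 with sh2, so a higher PAX5 share in every line was lost. Chromosome 9 as a whole changed its share by 0.07, -0.02 and 0.05 on the log2 scale in RS4;11, SEM and RCH, against 0.49, 0.59 and 0.32 at PAX5.

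EBF1 had log2 ratios of share of 0.43 in RS4;11, 0.16 in SEM and 0.07 in RCH, with libraries apart in RS4;11 and SEM and overlapping in RCH (mean 0.22 ± 0.19, exact sign-flip test, n = 3, p = 0.25, adjusted 0.667). Its peak numbers were 23 and 25 against 26 and 25, 20 and 20 against 27 and 25, and 17 and 12 against 12 and 11. At LEF1 the sh2 libraries stood apart from NT in SEM only, with 8 and 8 peaks against 13 and 10. FOXO1 and IKZF1 overlapped between shRNAs in all lines. IKZF3 and TCF3 moved opposite ways in different lines. The IKZF3 ratio was -0.92 in SEM, 0.99 in RCH and 0.17 in RS4;11, on 6 and 7 peaks against 5 and 3 in SEM and 4 and 2 against 4 and 5 in RCH. Chromosome 17 as a whole moved by -0.31, 0.43 and 0.29 in SEM, RCH and RS4;11. The TCF3 ratio was -0.37 in SEM, 0.53 in RCH and 0.21 in RS4;11, with 4 to 6 peaks in each list, and chromosome 19 as a whole moved by -0.28, 0.64 and 0.41 in the same lines. By number of peaks the TCF3 ratio was -0.15 in SEM, 0.13 in RCH and -0.14 in RS4;11. The same 4 TCF3 regions were open in every list, and no RS4;11 list had a peak at TCF3 outside them.

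**Figure D5:**
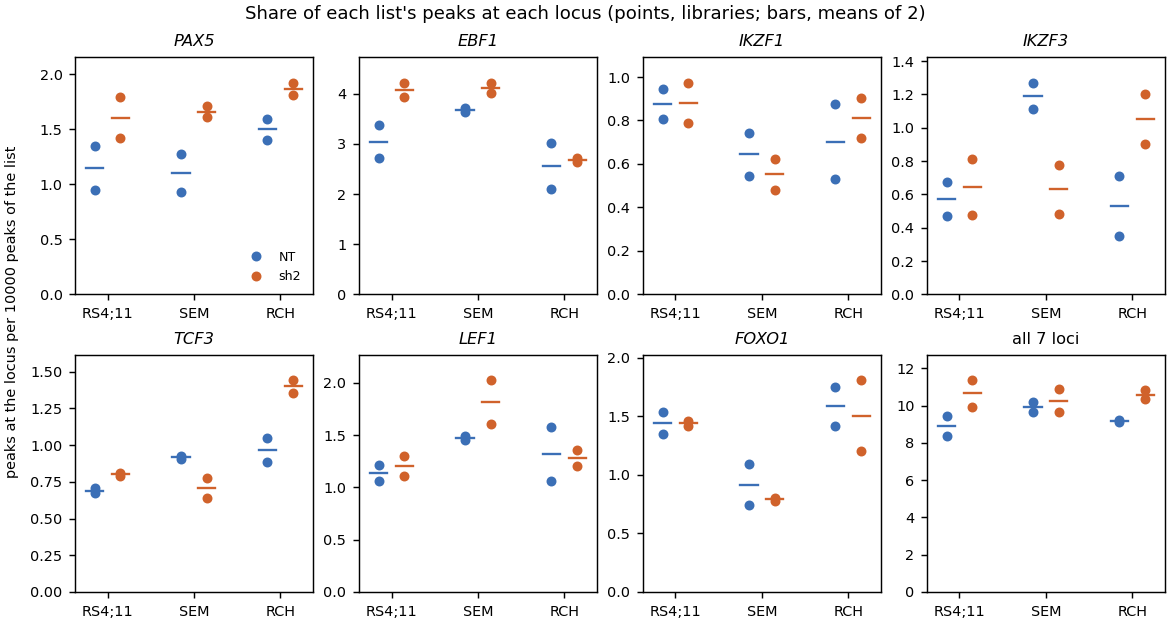
Peaks at each locus per 10000 peaks of the list (y axis) by line, with 1 point per library, bars at the mean of 2 libraries, NT in blue and sh2 in orange. At PAX5 both sh2 points lie above both NT points in all 3 lines, and at IKZF3 and TCF3 sh2 lies below NT in SEM and above it in RCH.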

How the data were processed

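Nuclei were treated with Nextera transposase and libraries made by PCR with barcodes, per the labels' protocols. The submitters' processing notes name Bowtie2, MACS2 and the build hg19. Versions, settings, treatment of duplicates and the shift of reads for the transposase were not given in the sources used here. Nor was depth, which is unknown. The authors deposited 1 value per peak, which was taken, from its range, for a fold enrichment, a ratio of signal to background in the same library, running from 1.60 to 44.2. It was used to describe, rank and filter peaks within lists.

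Autosomal and X peaks (140 others left out) were merged over all 12 lists where they touched or overlapped. bedtools 2.31.1 gave the same 130872 regions. An overlap of 1 bp made a list open in a region. Windows were taken from the rule for the 7 loci. The members, lists and rules were chosen with earlier results of these data known. Regions named in the text were, per locus, the region of highest mean percentile among those open in all lists, every NT-only and sh2-only region, and the strongest region of each pattern of lines. Other regions were named after their values were seen. Lines, named in the sample titles, paired the samples in the exact sign-flip test. Simulated lists with 200 planted NT-only and 200 planted sh2-only regions per line returned all of them (100%). The planted regions followed the rule exactly, so this checks the counting step only. It says nothing about missed peaks, depth or differences between libraries. Alternatives were equal list lengths, peaks above the pooled median fold (6.37), 50% coverage, a distance of 1 kb from peaks of the other shRNA, merging within a line, counts without pairing, and each library or line left out. Gene strands come from the RefSeq promoter table, and that of IKZF3 from general knowledge. Other B-lineage factors were not analysed here for want of hg19 positions. Python 3.11.15, numpy 2.4.6, pandas 2.3.3 and matplotlib 3.10.9 were used.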

Additional observations from a re-analysis of the deposited data

Results flagged for a closer look

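The change in share of peaks went opposite ways in different lines at IKZF3 and TCF3, with every sh2 library on the far side of every NT library, but whether lines differed was not tested. At IKZF3 the log2 ratio (sh2 over NT) came to -0.92 in SEM and 0.99 in RCH, on 2 to 7 peaks per list, while chromosome 17 as a whole moved by -0.31 and 0.43. At TCF3 it was -0.37 in SEM against 0.21 in RS4;11 and 0.53 in RCH, on 4 to 6 peaks per list. Chromosome 19 as a whole moved by -0.28, 0.41 and 0.64 in these lines. By number of TCF3 peaks RS4;11 went the same way as SEM, with ratios of -0.14 and -0.15, against 0.13 in RCH.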

How the results depend on the processing

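Counts of changed regions at the 7 loci are small and moved with most settings. Leaving a library out loosens every rule used for the counts below, so those counts could only stay or rise. In RS4;11, NT-only regions (2) were 1 with equal lists and 1 with peaks above the pooled median, and 3 to 7 with 1 library left out. Its sh2-only regions (1) were 7 and 2 under these settings, 0 at 1 kb from NT peaks, and 2 to 4 with 1 library left out. In SEM, NT-only regions (1) were 6 with equal lists, 0 above the median, 2 with 50% coverage, 0 at 1 kb, and 3 to 5 with 1 library left out, and sh2-only regions (5) were 1, 1 and 8 to 15 with equal lists, above the median and with 1 library left out. In RCH, NT-only regions (2) were 0 with equal lists and 4 to 8 with 1 library left out, and sh2-only regions (1) were 5 with equal lists, 0 above the median, 2 with 50% coverage and 1 to 6 with 1 library left out. Of the 12 named changes, 5 kept both libraries against none with equal lists, 1 above the median and 11 with 50% coverage. These settings only take peaks away, so no change could have turned around. The 23 regions open in all lists were 6 with 50% coverage, 4 above the median, 8 with equal lists and 23 to 25 with 1 library left out. Shares of all regions under these settings are not given for this count or for the patterns of lines. For changed regions they are given above only with equal lists and with 1 library left out. By the NT libraries, regions of RS4;11 alone (6) were 10 with 50% coverage, 1 with equal lists and 6 to 13 with 1 library left out. Those of SEM alone (1) were 0 with 50% coverage, 0 above the median, 3 with equal lists and 1 to 6. Those of RCH alone (3) were 0 above the median and 3 to 7, those of RS4;11 and SEM (4) were 4 to 8, those of RS4;11 and RCH (3) were 1 with 50% coverage, 0 above the median and 3 to 6, and those of SEM and RCH (1) were 0 above the median, 3 with equal lists and 1 to 2. Merging within a line changed no count by over 1.5 times.

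The mean log2 ratio of the share at all loci (0.17) turned to -0.0031 for the number of peaks, and otherwise ran from 0.12 to 0.27, with 0.14 to 0.21 when 1 library was left out. For covered bases the SEM ratio was -0.09, and with equal lists -0.21. Without the pairing by line, in place of a replicate block, the mean ratio was 0.17 with an exact permutation p of 0.1, the smallest that 3 against 3 samples allow. The alternatives for single loci were chosen after seeing the data. The mean PAX5 ratio ran from 0.29 to 0.56, but with equal lists (0.52) SEM was at -0.15, and for numbers (0.29) RCH at -0.09. The EBF1 mean ran from 0.04 to 0.31, with SEM at -0.07 in equal lists and RCH at -0.33 for numbers. The mean IKZF1 ratio (-0.0009) became 0.26 with equal lists, 0.11 without SEM and -0.11 to 0.13 with 1 library left out. The IKZF3 mean (0.08) became -0.10 for numbers, -0.38 without RCH, 0.58 without SEM, 0.25 for covered bases, 0.27 with equal lists and -0.0673 to 0.278 with 1 library left out. The TCF3 mean (0.13) became -0.0547 for numbers, -0.0783 without RCH, 0.37 without SEM, 0.23 for covered bases, 0.27 with equal lists and 0.08 to 0.17 with 1 library left out. The LEF1 mean (0.11) became -0.0623 for numbers, 0.32 with equal lists, 0.02 without SEM, 0.19 without RCH and 0.03 to 0.22 with 1 library left out, and the FOXO1 mean (-0.09) 0.0456 for covered bases, 0.0676 with equal lists and -0.203 to 0.0059 with 1 library left out. Depth is unknown, so a missing peak does not show closed chromatin.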
